A study of Arabidopsis thaliana with 20 samples.

Results

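The Calvin cycle and photorespiration share their first enzyme, Rubisco, and 39 nuclear genes of the 2 pathways were followed here through the ageing of the Arabidopsis thaliana rosette. The genes were chosen by locus: 24 of the Calvin cycle (the Rubisco small subunits and activase, the enzymes of the cycle and the CP12 regulators) and 15 of photorespiration, out of 37336 loci in the count files. The rule names loci and uses no measured value, but the genes were chosen with earlier results of these data known. Of the 39 genes, 38 passed the filter on low counts, namely 24 of 24 in the Calvin cycle and 14 of 15 in photorespiration. The exception was PGLP1, the phosphoglycolate phosphatase.

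Transcripts were counted by 3' RNA sequencing of rosette leaves from plants of ecotype Col-0 grown in a chamber under long days. The 20 libraries formed 4 groups of 5: wild type at 25 days after sowing (DAS), snrk2.4/snrk2.10 mutant at 25 DAS, wild type at 45 DAS and snrk2.4/snrk2.10 mutant at 45 DAS. SNRK2.4 and SNRK2.10 encode protein kinases of the SnRK2 family, and the mutant carries changes in both genes. The labels name neither its alleles nor the leaf positions sampled, nor do they say whether a library is 1 plant or a pool, so the p-values below measure the spread between these samples.

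In the Calvin cycle, Rubisco fixes carbon dioxide on ribulose bisphosphate in the chloroplast stroma, phosphoglycerate kinase and glyceraldehyde phosphate dehydrogenase reduce the product to triose phosphate, and a longer series of enzymes regenerates the acceptor. CP12 proteins bind glyceraldehyde phosphate dehydrogenase and phosphoribulokinase into an inactive complex. Rubisco also reacts with oxygen, and photorespiration returns the phosphoglycolate made in that reaction to the Calvin cycle through the plastid, the peroxisome and the mitochondrion, where glycine decarboxylase releases carbon dioxide and ammonia. Loss of Rubisco and of photosynthetic transcripts is a known feature of leaf senescence.

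Several of these genes have close copies, and reads from the 3' end can be told apart only where the copies differ. The last 60 coding bases of the 4 Rubisco small subunit genes are shown because they are the coding bases nearest the 3' end. They run 5′ to 3′ and end with the stop codon. They were read from RefSeq TAIR10.1. In an alignment of the 2 ends, capitals mark the bases that differ from RBCS1B or have no partner in its end. RBCS1B (AT5G38430) lies at chr5:15383167-15385320, minus strand, RBCS2B (AT5G38420) at chr5:15380907-15382071, minus strand, RBCS3B (AT5G38410) at chr5:15376988-15378642, minus strand and RBCS1A (AT1G67090) at chr1:25048158-25049667, minus strand.
RBCS1B: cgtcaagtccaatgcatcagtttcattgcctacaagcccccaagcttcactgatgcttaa
RBCS2B: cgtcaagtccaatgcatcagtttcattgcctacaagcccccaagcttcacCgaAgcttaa
RBCS3B: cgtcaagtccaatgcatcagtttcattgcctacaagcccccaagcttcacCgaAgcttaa
RBCS1A: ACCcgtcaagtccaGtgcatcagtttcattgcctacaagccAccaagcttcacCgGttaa

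The ends of RBCS2B and RBCS3B each differed from that of RBCS1B at 2 bases. They were the same as each other over all 60 bases, so this stretch cannot tell RBCS2B from RBCS3B. In the end of RBCS1A 7 bases were marked, but its leading ACC lies before the RBCS1B end begins and was not compared with it. The RBCS1A coding sequence is the shorter, at 543 against 546 bases. Over the whole coding sequence RBCS1A was 90.4% to 90.6% identical to the other 3 genes, and those were 96.7% to 97.3% identical to each other. The last 300 transcript bases were read as 251 windows of 50 bases. Of those of RBCS1A, 0 occurred anywhere in the transcripts of RBCS1B, RBCS2B or RBCS3B, and the same held among those 3. Any bases between the stop codon and the last 300 were not searched for. The pairs GOX1 and GOX2, GLDP1 and GLDP2, GLDH1 and GLDH3, GGT1 and GGT2, GAPA1 and GAPA2, FBA1 and FBA2, PGK1 and PGK2, CP12-1 and CP12-2, and TKL1 and TKL2 likewise shared 0 of 251 such windows. How reads with more than 1 place in the genome were counted is not given in the sources used here.

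PGLP1 was the exception. Its coding sequence (AT5G36700, chr5:14421182-14424610, minus strand) equals that of AT5G36790 (chr5:14480482-14483927, minus strand) at 1089 of 1089 bases, and all 251 windows of its transcript end occur in the copy. The last 60 coding bases of both show 0 differences.
PGLP1: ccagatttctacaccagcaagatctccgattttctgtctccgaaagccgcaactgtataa
AT5G36790: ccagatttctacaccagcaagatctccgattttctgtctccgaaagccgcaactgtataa
PGLP1 had 26 counts over all 20 libraries, from 0 to 4 in each, and AT5G36790 had 92. A level of PGLP1 could therefore not be measured, and the gene is left out of every test below.

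Libraries held 615317 to 2343212 counts, and the smallest level that a count of 0 excludes, 3 counts, lay between 1.28 and 3.97 in a single library in CPM, the unit of level used here (counts per library brought to the same total). CPM use trimmed-mean (TMM) scaling factors, which were 0.748 to 0.831 at 25 DAS and 1.13 to 1.32 at 45 DAS, so a gene's CPM rests on that scaling, whereas shares and ratios of counts within a library do not. Wild-type SNRK2.4 averaged 37.3 ± 8.63 CPM (SD, n = 5) against 4.92 ± 2.48 CPM in mutant leaves at 25 DAS, and 80.0 ± 5.39 against 2.67 ± 1.72 CPM at 45 DAS. SNRK2.10 had 62.9 ± 11.3 against 47.0 ± 6.01 CPM and 75.1 ± 5.75 against 31.4 ± 4.85 CPM, and 3' counts may come from sequence beyond a mutation. The 5 mesophyll markers, genes of light-harvesting proteins, summed to 42425 to 45264 CPM in wild type and 40977 to 44299.8 CPM in the mutant at 25 DAS, and to 1139 to 5475 CPM and 5913 to 7765 CPM at 45 DAS. None of those 5 was at 0 in any group. The 4 epidermal markers fell to 50.1 to 117 CPM in wild type and 128 to 145 CPM in the mutant at 45 DAS from 426 to 484 and 493 to 545 CPM, the 4 phloem markers had 377 to 456 and 329 to 432 CPM at 45 DAS against 219 to 299.7 and 213 to 321 CPM at 25 DAS, and the 4 xylem markers, of which IRX3 was at 0 in all old wild-type libraries and IRX1 in all old mutant libraries, had at most 4.70 CPM at 45 DAS against at least 102 CPM at 25 DAS. The guard cell markers summed to 55.9 to 63.3 CPM in wild type and 82.5 to 85.5 CPM in the mutant at 25 DAS. At 45 DAS they summed to 37.9 to 62.6 CPM and 41.0 to 46.0 CPM. In all groups the flower markers summed to at most 10.7 CPM and the root markers to at most 3.24 CPM. The part of a changed mix of cells in the results below was not tested, and in whole leaves fewer cells of a type and less RNA per cell cannot be told apart.

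Wild-type libraries at 45 DAS stood apart from each other. The biological coefficient of variation was 30.0% in that group and 19.2% in the old mutant, and for the young groups it was 10.96% (wild type) and 13.3% (mutant). Among the wild-type libraries at 45 DAS, replicate 1 was highest for 20 of 24 Calvin cycle genes and for 14 of 14 tested photorespiratory genes, and replicate 5 was lowest for 17 of 24 and 12 of 14. SAG12, a cysteine protease gene used as a marker of late leaf senescence, had 0 to 1.23 CPM in wild type and 12.0 to 62.4 CPM in the mutant at 25 DAS. At 45 DAS it had 3008, 2611, 863, 806 and 16424 CPM in the 5 wild-type libraries and 41.7 to 268 CPM in the mutant. Counts of calls for the genotype at 45 DAS and for the interaction are therefore also given without wild-type replicates 1 and 5. Ratios, shares and medians are given with all 5 libraries only.

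**Figure D1:**
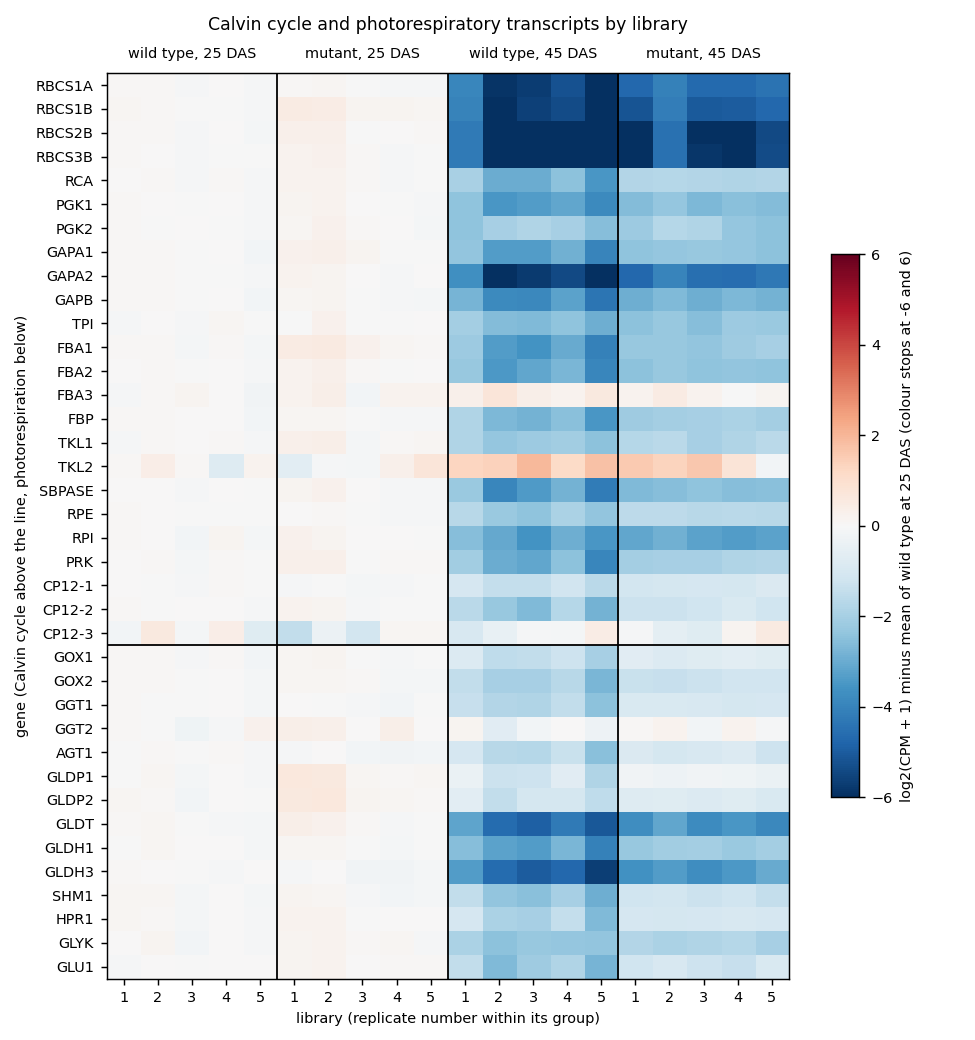
Levels of the 38 tested genes in each of the 20 libraries, as log2(CPM + 1) minus the mean of wild type at 25 DAS (colour, which stops at -6 and 6), with genes in rows and libraries in columns. Blue covers nearly all genes at 45 DAS, the RBCS genes and GAPA2 are darkest, and replicate 1 of wild type at 45 DAS is paler than replicates 2 to 5 for most genes.

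The first comparison asked how each pathway changed between 25 and 45 DAS. In wild type 21 of 24 Calvin cycle genes and 13 of 14 photorespiratory genes fell, where 34.5% of all 14503 genes tested fell and 36.1% rose. In the mutant 21 of 24 and 13 of 14 fell, where 34.6% of all genes fell and 35.4% rose. In wild type 2 Calvin cycle genes rose (TKL2 and FBA3), and in the mutant 1 (TKL2), while no photorespiratory gene rose in either genotype. The levels of 34 of the 38 genes at 45 DAS lay wholly below those at 25 DAS in wild type, and 34 of 38 did so in the mutant, against 28.6% and 29.5% of all genes. Calls are those of edgeR's quasi-likelihood test at an adjusted p of 0.05 over all genes, and each of these calls was kept when any 1 of the 20 libraries was left out.

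Carboxylation fell furthest within the Calvin cycle. RBCS2B changed by -5.99 ± 0.67 on the log2 scale in wild type (SE; 63.4-fold lower, edgeR adjusted p = 2.84e-07) and by -5.67 ± 0.66 in the mutant (adjusted p = 4.82e-07). Its 5 wild-type libraries had 7872, 7935, 7065, 7742 and 6989.9 CPM at 25 DAS and 398, 26, 68.6, 62.7 and 36.1 CPM at 45 DAS, in the order of the replicates. The ages did not overlap, and replicate 1 lay far above the other 4 old libraries. The mutant libraries at 45 DAS had 104, 331, 111, 92 and 176 CPM, with replicate 2 highest. RBCS3B changed by -5.85 ± 0.59 in wild type and by -5.51 ± 0.58 in the mutant (edgeR adjusted p = 3.78e-08 and 7.32e-08), and RBCS1B by -5.30 ± 0.40 and -5.05 ± 0.40 (adjusted p = 1.26e-10 and 2.37e-10). RBCS1A changed by -5.16 ± 0.37 and -4.502 ± 0.36 (adjusted p = 3.12e-12 and 2.66e-11). RCA (AT2G39730), Rubisco activase, which removes inhibitory sugar phosphates from Rubisco, changed less, by -2.67 ± 0.22 in wild type and -1.85 ± 0.21 in the mutant (adjusted p = 5.01e-11 and 2.56e-08).

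The 5 genes of the reduction phase all fell in both genotypes. GAPA2 (AT1G12900), which with GAPA1 (AT3G26650) encodes the A subunit of the plastid glyceraldehyde phosphate dehydrogenase, changed by -5.13 ± 0.42 in wild type and -4.46 ± 0.40 in the mutant (edgeR adjusted p = 7.03e-10 and 3.70e-09). GAPA1 changed by -3.10 ± 0.21 and -2.49 ± 0.21, and GAPB (AT1G42970), the B subunit, by -3.51 ± 0.22 and -2.83 ± 0.21. PGK1 (AT3G12780) and PGK2 (AT1G56190), the phosphoglycerate kinases, changed by -3.16 ± 0.20 and -2.17 ± 0.15 in wild type and by -2.61 ± 0.19 and -2.14 ± 0.15 in the mutant.

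Of the 11 genes of the regeneration phase, 9 fell in both genotypes. RPI (AT3G04790), ribose phosphate isomerase, changed by -3.09 ± 0.16 in wild type and -3.25 ± 0.16 in the mutant, and SBPASE (AT3G55800), sedoheptulose bisphosphatase, by -3.16 ± 0.25 and -2.61 ± 0.24. FBA1 (AT2G21330) and FBA2 (AT4G38970), the aldolases, PRK (AT1G32060), phosphoribulokinase, FBP (AT3G54050), fructose bisphosphatase, TPI (AT2G21170), triose phosphate isomerase, TKL1 (AT3G60750), a transketolase, and RPE (AT5G61410), ribulose phosphate epimerase, fell, with changes from -3.10 to -2.08 in wild type and from -2.52 to -1.62 in the mutant. The remaining 2, TKL2 and FBA3, did not fall.

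TKL2 (AT2G45290), the second transketolase gene, rose by 1.68 ± 0.36 on the log2 scale in wild type (3.21-fold, edgeR adjusted p = 0.000178) and by 1.25 ± 0.35 in the mutant (2.37-fold, adjusted p = 0.00295). It had 3.26, 4.41, 3.24, 1.39 and 3.7 CPM in wild type at 25 DAS and 8.97, 9.47, 14.4, 7.94 and 12.5 CPM at 45 DAS, and 1.66, 2.86, 2.72, 4.07 and 5.69 CPM and 11, 9.4, 11.6, 5.94 and 2.64 CPM in the mutant. Every old wild-type library lay above every young one, whereas replicate 5 of the old mutant lay within the young range. These levels rest on 2 to 22 counts per library. FBA3 (AT2G01140), the third plastid aldolase gene, rose by 0.44 ± 0.13 in wild type (edgeR adjusted p = 0.00295) and changed by 0.04 ± 0.13 in the mutant (adjusted p = 0.762), a value that turned to -0.05 in thinned counts. The wild-type libraries had 70.5, 77.7, 82.7, 73.7 and 64.2 CPM at 25 DAS and 89.7, 121, 95.1, 86.5 and 109.8 CPM at 45 DAS. FBA3 overlaps AT2G01130 on its own strand, to which 294 counts were given, 12.7% of those of FBA3.

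Of the CP12 genes, CP12-2 (AT3G62410) changed by -2.15 ± 0.17 in wild type and -1.22 ± 0.16 in the mutant, and CP12-1 (AT2G47400) by -1.31 ± 0.13 and -0.97 ± 0.13, and both fell. CP12-3 (AT1G76560) passed the test in neither genotype, with -0.30 ± 0.35 and 0.27 ± 0.36 (edgeR adjusted p = 0.45 and 0.52), on 3 to 25 counts per library.

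**Figure D2:**
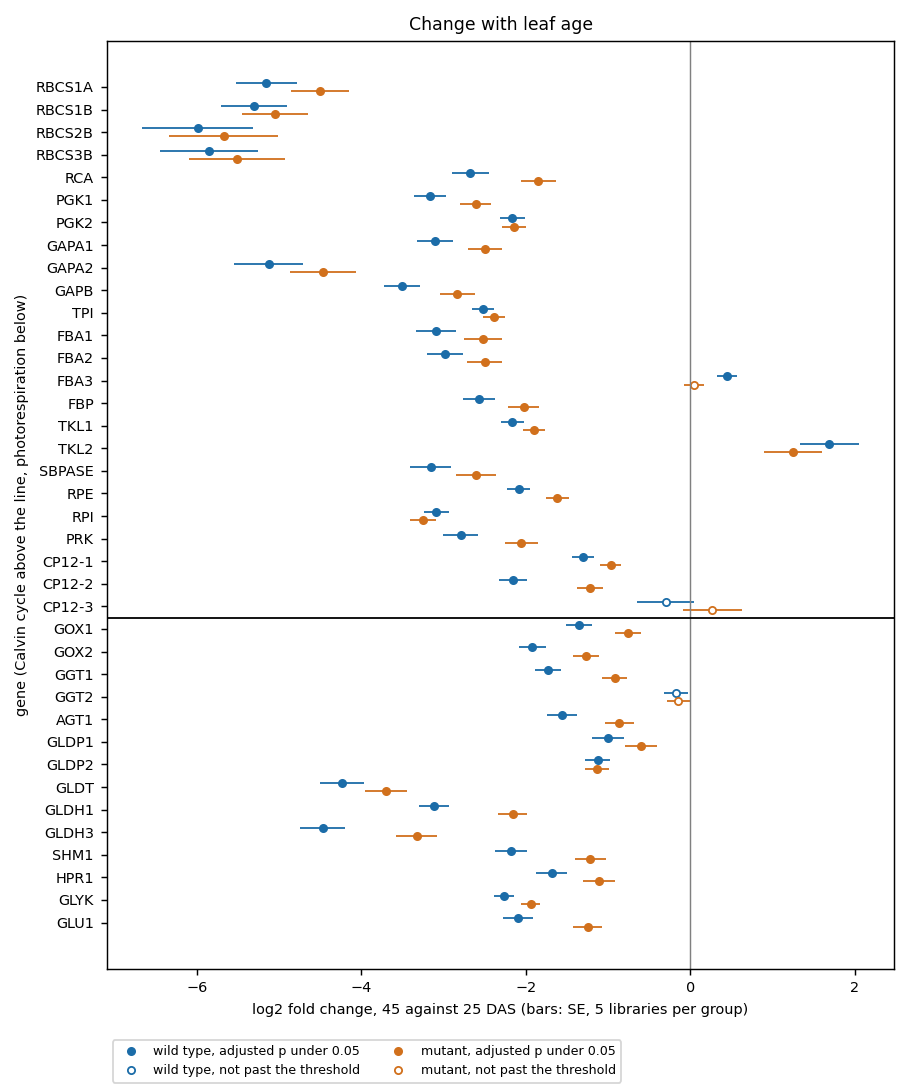
Log2 fold change from 25 to 45 DAS of each tested gene in wild type (blue) and mutant (orange), with the SE as bars and 5 libraries per group. The RBCS genes and GAPA2 lie furthest left, GLDT and GLDH3 lead the photorespiratory genes, and TKL2 lies to the right of 0 in both genotypes.

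In photorespiration the mitochondrial genes diverged most among themselves. Glycine decarboxylase is built of P, T, H and L proteins, and its subunit transcripts did not fall alike. GLDH3 (AT1G32470), an H protein gene, changed by -4.47 ± 0.27 in wild type (22.1-fold lower, edgeR adjusted p = 1.64e-12) and by -3.33 ± 0.25 in the mutant (adjusted p = 8.15e-11). It had 741, 721, 698, 679 and 711 CPM in wild type at 25 DAS and 69.3, 28.4, 21.7, 26.5 and 13.3 CPM at 45 DAS. GLDT (AT1G11860), the T protein gene, changed by -4.24 ± 0.27 and -3.70 ± 0.25 (adjusted p = 1.91e-12 and 1.10e-11), and GLDH1 (AT2G35370), an H protein gene, by -3.11 ± 0.18 and -2.16 ± 0.17 (adjusted p = 8.16e-14 and 3.20e-11). GLDP1 (AT4G33010), a P protein gene, changed by -1.01 ± 0.19 in wild type and -0.60 ± 0.19 in the mutant (adjusted p = 5.48e-05 and 0.00765). Its libraries had 1199, 1321, 1121, 1227 and 1139 CPM and 910.4, 485, 503, 753 and 337 CPM in wild type at the 2 ages. The ages did not overlap for either gene, but the old libraries of GLDP1 reached closer to the young ones. GLDP2 (AT2G26080), the other P protein gene, changed by -1.13 ± 0.15 and -1.14 ± 0.15.

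The fold changes of GLDH3 carry a limit of the counting. GLDH3 overlaps AT1G32460 transcribed the other way, to which 4085 counts were given, 42.0% of those of GLDH3, and the use of strand in the counting is not given in the sources used here. SHM1 (AT4G37930), the mitochondrial serine hydroxymethyltransferase that works beside glycine decarboxylase, changed by -2.18 ± 0.19 in wild type and -1.22 ± 0.19 in the mutant.

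The peroxisomal genes fell less, and 1 of the 6 did not pass the test. GOX1 (AT3G14420) and GOX2 (AT3G14415), the glycolate oxidases, changed by -1.35 ± 0.16 and -1.92 ± 0.16 in wild type and by -0.76 ± 0.16 and -1.27 ± 0.16 in the mutant. GGT1 (AT1G23310), which transfers an amino group from glutamate to glyoxylate, changed by -1.73 ± 0.15 and -0.92 ± 0.15. AGT1 (AT2G13360), the serine:glyoxylate aminotransferase, changed by -1.56 ± 0.18 and -0.87 ± 0.18, and HPR1 (AT1G68010), hydroxypyruvate reductase, by -1.69 ± 0.19 and -1.11 ± 0.19. GGT2 (AT1G70580), the second glutamate:glyoxylate aminotransferase gene, had -0.17 ± 0.15 and -0.15 ± 0.14 (edgeR adjusted p = 0.299 and 0.351), with 54.8, 50.1, 43.8, 48.7 and 63 CPM in wild type at 25 DAS and 57.9, 32.3, 45.7, 52.1 and 42 CPM at 45 DAS. Of the plastid genes, GLYK (AT1G80380), glycerate kinase, changed by -2.27 ± 0.12 and -1.94 ± 0.12, and GLU1 (AT5G04140), the ferredoxin-dependent glutamate synthase that reassimilates the ammonia, by -2.096 ± 0.18 and -1.25 ± 0.17.

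Set against each other, the Calvin cycle genes had the larger median fall with age, a description with no test. The median change was -2.89 on the log2 scale over the 24 Calvin cycle genes and -1.82 over the 14 photorespiratory genes in wild type, and -2.44 and -1.18 in the mutant, where the median of all genes tested was 0.07 and 0.06. Without the 4 RBCS genes, whose own median was -5.58 and -5.28, the remaining 20 Calvin cycle genes had medians of -2.62 (wild type) and -2.099 (mutant). The ranges of the pathways overlapped, from -5.99 to 1.68 in the Calvin cycle and from -4.47 to -0.17 in photorespiration in wild type.

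Within each library, the summed counts of the 24 Calvin cycle genes were divided by those of the 15 photorespiratory genes. This ratio needs no scaling between libraries but, unlike the medians, gives most weight to the genes with most counts. In wild type it was 7.80, 7.71, 7.77, 7.71 and 7.93 at 25 DAS and 2.32, 1.67, 1.74, 1.78 and 1.86 at 45 DAS. In the mutant it was 7.83, 8.01, 8.15, 7.95 and 7.94 at 25 DAS and 1.68, 2.09, 1.79, 1.73 and 1.96 at 45 DAS. The ages did not overlap in either genotype, and the genotypes overlapped at each age. The ratio was 7.79 ± 0.09 and 7.98 ± 0.11 at 25 DAS and 1.87 ± 0.26 and 1.85 ± 0.17 at 45 DAS (mean ± SD, n = 5, wild type and mutant). Without the RBCS genes it was 2.98 ± 0.02 and 3.08 ± 0.05 at 25 DAS and 1.51 ± 0.09 and 1.47 ± 0.07 at 45 DAS, so the shift was smaller but the ages again did not overlap. In this form the genotypes did not overlap at 25 DAS, with 2.95 to 3.01 in wild type and 3.03 to 3.15 in the mutant. These ratios sum 3' counts, and they compare libraries, not the amounts of the enzymes. All 39 genes together held 9.22 ± 0.21% (wild type) and 9.56 ± 0.55% (mutant) of all counts at 25 DAS, and 1.38 ± 0.61% and 2.19 ± 0.14% at 45 DAS.

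**Figure D3:**
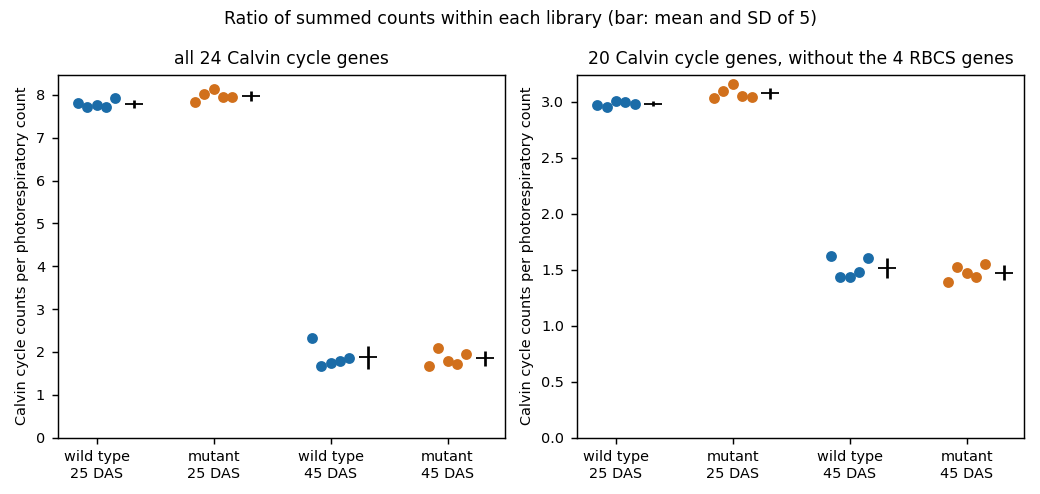
Summed counts of Calvin cycle genes per photorespiratory count within each library, with all 24 Calvin cycle genes (left) and without the 4 RBCS genes (right), wild type in blue and mutant in orange, with the mean and SD of 5 libraries beside them. The libraries at 25 DAS lie between 7.71 and 8.15 on the left and those at 45 DAS between 1.67 and 2.32.

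Within gene families the share of each copy moved with age, described here with no test. RBCS1A held 55.6 ± 0.15% of the RBCS counts in wild type at 25 DAS and 69.9 ± 6.54% at 45 DAS, and 53.5 ± 1.01% and 70.0 ± 4.74% in the mutant. RBCS2B went from 11.8 ± 0.31% to 6.30 ± 2.59% and RBCS3B from 25.3 ± 0.45% to 15.8 ± 4.19% in wild type, while RBCS1B held 7.37 ± 0.19% and 8.00 ± 1.14%. In the mutant RBCS1B held 8.48 ± 0.43% at 25 DAS and 7.48 ± 0.30% at 45 DAS. Replicate 1 of wild type at 45 DAS kept the lowest share of RBCS1A in its group, 60.2%. GAPA2 went from 43.6 ± 0.93% to 13.9 ± 5.68% of the GAPA counts in wild type and from 42.3 ± 1.12% to 15.7 ± 2.82% in the mutant. GLDH3 went from 55.4 ± 1.74% to 30.8 ± 6.77% of the counts of GLDH1 and GLDH3, and from 53.2 ± 0.60% to 33.5 ± 4.03%. The mean shares of RBCS1A, GAPA2 and GLDH3 each moved the same way in both genotypes, and that of RBCS1B did not.

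The minor copies that rose or did not pass the test, FBA3, TKL2 and GGT2, gained share. FBA3 went from 1.02 ± 0.10% to 11.7 ± 5.47% of the aldolase counts in wild type and from 1.01 ± 0.13% to 5.63 ± 0.69% in the mutant. TKL2 went from 0.39 ± 0.14% to 5.68 ± 1.88% and from 0.38 ± 0.18% to 3.28 ± 1.66% of the transketolase counts. GGT2 went from 2.59 ± 0.45% to 7.44 ± 1.89% and from 3.06 ± 0.37% to 5.06 ± 0.62% of the counts of the GGT genes. Of copies that fell less than their partner, PGK2 went from 9.497 ± 0.27% to 18.7 ± 5.66% and from 9.62 ± 0.24% to 12.6 ± 2.46%, and GOX1 from 59.7 ± 0.71% to 68.8 ± 2.11% and from 60.2 ± 1.18% to 68.3 ± 1.31%. CP12-3 held at most 1.84% of the CP12 counts in any library.

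Among the shares of all these families, the ones that did not overlap between the genotypes were picked out. At 45 DAS these were CP12-1 and CP12-2, and GLDP1 and GLDP2 among the P protein genes, while the share of CP12-3 overlapped. The shares of GLDP1 and GLDP2 mirror each other, and those of CP12-1 and CP12-2 nearly do, so neither pair gives separate results. There is no share over all genes to set beside them. CP12-2 held 15.0 ± 0.49% (wild type) and 15.9 ± 1.13% (mutant) of the CP12 counts at 25 DAS, and 8.61 ± 1.71% and 13.6 ± 1.43% at 45 DAS. Its wild-type libraries at 45 DAS ran from 6.72% to 10.4% and the mutant ones from 12.2% to 16.0%. GLDP1 held 76.7 ± 0.89% (wild type) and 76.5 ± 0.51% (mutant) of the P protein counts at 25 DAS, and 77.4 ± 3.52% and 82.6 ± 0.71% at 45 DAS, where wild type ran from 73.0% to 81.4% and the mutant from 81.6% to 83.4%. At 25 DAS the family shares that did not overlap were those of RBCS1A, with 55.4% to 55.8% in wild type against 52.2% to 54.3%, and of RBCS1B, with 7.14% to 7.59% against 8.05% to 9.11%.

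Over the 5 glycine decarboxylase genes together, the share of the P protein genes rose and that of the T and H protein genes shrank, while the levels of all 5 fell. GLDP1 held 33.1 ± 0.94% of these counts in wild type at 25 DAS and 65.9 ± 2.42% at 45 DAS, and 36.9 ± 2.07% and 67.8 ± 2.13% in the mutant. GLDT went from 21.4 ± 0.64% to 4.29 ± 1.12% and from 21.0 ± 0.91% to 4.40 ± 0.88%, and GLDH3 from 19.6 ± 0.86% to 3.31 ± 1.08% and from 16.4 ± 1.29% to 4.54 ± 1.09%. The ages did not overlap for any of these 3 genes in either genotype. Between the genotypes GLDP1 (32.1% to 34.1% in wild type, 34.8% to 39.2% in the mutant) and GLDH3 (18.6% to 20.7%, 14.6% to 17.7%) did not overlap at 25 DAS, and GLDP2 (16.0% to 23.4%, 13.9% to 14.8%) did not at 45 DAS. These too were picked from all the shares of the 5 genes, which depend on each other, with no share over all genes beside them.

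**Figure D4:**
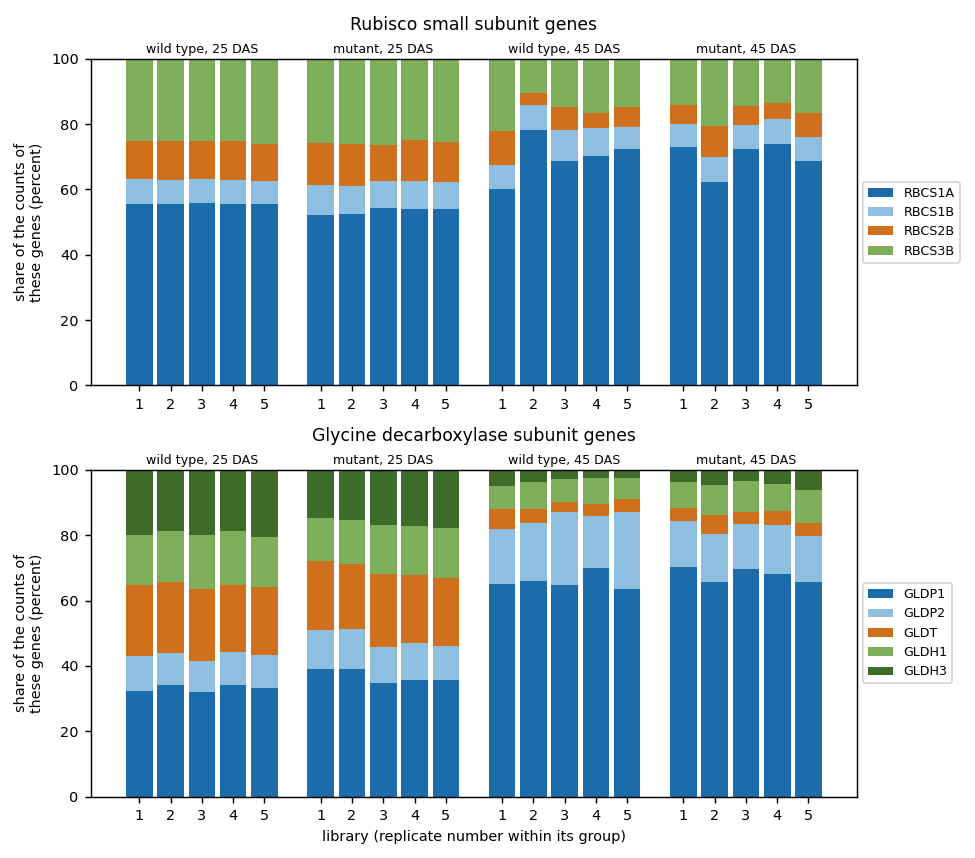
Share of the counts of the 4 RBCS genes (top) and of 5 glycine decarboxylase subunit genes (bottom) held by each gene, in percent, with 1 stacked bar per library and libraries grouped by genotype and age. RBCS1A and GLDP1 widen at 45 DAS in both genotypes, while GLDT and GLDH3 shrink.

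The second comparison set the mutant against wild type at each age. At 25 DAS 0 of 38 genes passed the edgeR test, where 3.16% of all genes did in either direction, and 1 of the 38 had an unadjusted p under 0.05. DESeq2 and limma also called 0. The log2 differences ran from -0.55 to 0.31 in the Calvin cycle and from -0.11 to 0.34 in photorespiration. The genes with the smallest p were GLDP2 with 0.34 ± 0.15 (edgeR adjusted p = 0.238) and GLDP1 with 0.32 ± 0.19 (adjusted p = 0.439) in photorespiration, and CP12-3 with -0.55 ± 0.35 (adjusted p = 0.478) and FBA1 with 0.31 ± 0.22 (adjusted p = 0.534) in the Calvin cycle. RBCS1B was the 1 gene of the 38 whose mutant libraries all lay above the wild-type ones, as did those of 4.36% of all genes tested, with 0.28 ± 0.33 (edgeR adjusted p = 0.753). Replicates 1 and 2 of the mutant had the highest levels of GLDP1 at this age, at 1833 and 1824 CPM, against 1267 to 1300 CPM in its other 3 libraries and 1121 to 1321 CPM in wild type.

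At 45 DAS 9 of 24 Calvin cycle genes and 11 of 14 photorespiratory genes were higher in the mutant, where 5.05% of all genes were, and 0 were lower. The median difference was 0.54 on the log2 scale in the Calvin cycle and 0.67 in photorespiration, against 0.0005 over all genes tested. In the Calvin cycle the calls were RCA, PGK1, GAPA1, GAPB, FBA1, TKL1, RPE, PRK and CP12-2. In photorespiration they were GOX1, GOX2, GGT1, AGT1, GLDP1, GLDH1, GLDH3, SHM1, HPR1, GLYK and GLU1, which span the peroxisome, the mitochondrion and the plastid. The levels of 3 Calvin cycle and 5 photorespiratory genes did not overlap between the genotypes, against 2.98% of all genes with such a rise.

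CP12-2 had the largest called difference of the Calvin cycle, 0.98 ± 0.17 on the log2 scale (1.97-fold, edgeR adjusted p = 0.000738). Its libraries at 45 DAS had 108, 68.6, 53, 101 and 45.7 CPM in wild type and 136, 137, 147, 177 and 147 CPM in the mutant. Every mutant library lay above every wild-type one. RCA was higher by 0.91 ± 0.21 (1.88-fold, adjusted p = 0.006), with 2564, 1234, 1247, 1763 and 873 CPM in wild type and 2889.8, 3000.2, 2929, 2757 and 2883 CPM in the mutant. Here the mutant libraries were tightly grouped and wild-type replicate 1 came closest to them. FBA1 was higher by 0.89 ± 0.23 (1.85-fold, adjusted p = 0.013), with 455, 198, 166, 249.7 and 122 CPM in wild type and 422, 417, 393, 467 and 508 CPM in the mutant, and wild-type replicate 1 lay within the mutant range. PRK was higher by 0.89 ± 0.20 (adjusted p = 0.00608) and did not overlap. PRK overlaps AT1G32070 transcribed the other way, to which 2994 counts were given, 19.2% of those of PRK.

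In photorespiration GLDH3 was higher by 1.03 ± 0.26 (2.04-fold, edgeR adjusted p = 0.0144), GLDH1 by 0.97 ± 0.18 (1.95-fold, adjusted p = 0.00119) and GLU1 by 0.96 ± 0.18 (1.95-fold, adjusted p = 0.00121). GLDH1 had 97, 59.9, 54.2, 85.6 and 33.9 CPM in wild type and 118, 135, 137, 119 and 137 CPM in the mutant at 45 DAS. GLU1 had 251, 111, 159, 199 and 101 CPM and 308, 357, 297, 268 and 369 CPM. Both genes were separated between the genotypes, and for both wild-type replicate 1 was nearest to the mutant. GLDH3 had 69.3, 28.4, 21.7, 26.5 and 13.3 CPM and 55.9, 69.6, 52.3, 65.3 and 85.9 CPM, so that wild-type replicate 1 lay within the mutant range. SHM1 and GGT1, higher by 0.94 ± 0.19 and 0.77 ± 0.15 (adjusted p = 0.00207 and 0.00195), did not overlap between the genotypes either.

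The 4 RBCS genes did not pass the test at 45 DAS, with log2 differences of 0.44 to 0.67 and SEs of 0.31 to 0.56 (edgeR adjusted p = 0.19 to 0.704). RBCS1A had 2340.0, 604, 686, 934 and 415 CPM in wild type and 1335, 2159, 1403, 1392 and 1639 CPM in the mutant, and wild-type replicate 1 was the highest of all 10. The other uncalled genes were GAPA2 (0.73 ± 0.36), SBPASE (0.62 ± 0.24), FBA2 (0.60 ± 0.20), FBP (0.55 ± 0.19), CP12-1 (0.28 ± 0.13), TPI (0.17 ± 0.13), PGK2 (0.10 ± 0.16), CP12-3 (0.02 ± 0.36), RPI (-0.08 ± 0.16), FBA3 (-0.24 ± 0.12) and TKL2 (-0.30 ± 0.30) in the Calvin cycle. In photorespiration they were GLDT (0.66 ± 0.25), GLDP2 (0.33 ± 0.15) and GGT2 (0.24 ± 0.15). The signs of RBCS2B, PGK2, RPI and CP12-3 turned when some libraries were left out, and that of CP12-3 also with another tool.

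**Figure D5:**
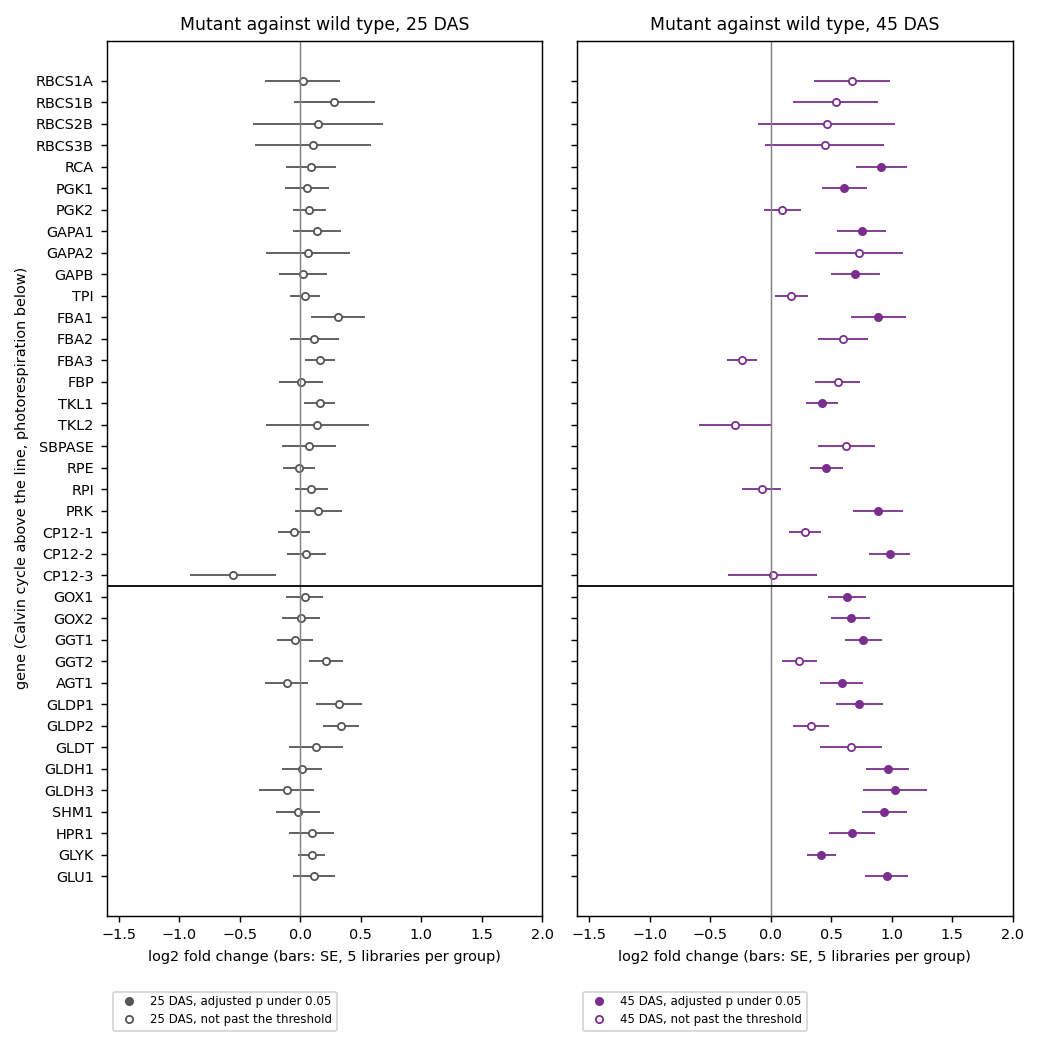
Log2 fold change of mutant against wild type for each tested gene at 25 DAS (left) and 45 DAS (right), with the SE as bars and 5 libraries per group. Filled points passed the edgeR test at an adjusted p of 0.05: 0 of 38 at 25 DAS and 20 of 38 at 45 DAS, each of them to the right of 0.

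These counts rested on single libraries of the old groups. Without wild-type replicate 1 at 45 DAS, 19 Calvin cycle and 13 photorespiratory genes passed. Without wild-type replicate 2 or replicate 3, 3 and 6 passed. Without wild-type replicate 5, 5 and 8 passed. Without mutant replicate 1, 2, 4 or 5 at 45 DAS, 4 or 5 Calvin cycle genes and 8 to 11 photorespiratory genes passed. Without wild-type replicates 1 and 5 together, 18 and 13 passed, and with the 10 old libraries fitted alone, 1 and 4. RCA, PRK, CP12-2, GOX1, GOX2, GGT1, GLDH1, SHM1 and GLU1 kept their call with any 1 of the 20 libraries left out. The mesophyll markers moved the same way: 4 of the 5 were higher in the mutant at 45 DAS, with a median difference of 1.20, as were 3 of the 4 epidermal markers, with a median of 0.79. Of the other tested lists, 0 of 4 phloem and 0 of 2 xylem markers passed, and 1 of 3 guard cell markers was lower. The part of these lists in the result was not tested.

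The genotype by age interaction, the change with age in the mutant minus that in wild type, tested whether the fall differed between the genotypes. It was called for 1 of 24 Calvin cycle genes and 3 of 14 photorespiratory genes, all positive, where 1.83% of all genes had a positive call. CP12-2 had 0.93 ± 0.23 on the log2 scale (edgeR adjusted p = 0.0268), GLDH1 0.95 ± 0.24 (adjusted p = 0.029), SHM1 0.96 ± 0.26 (adjusted p = 0.0425) and GGT1 0.81 ± 0.21 (adjusted p = 0.0351). GGT1 had 2058, 1962, 1964, 2026 and 1822 CPM in wild type and 1982, 1939.8, 1871, 1777 and 1958 CPM in the mutant at 25 DAS. At 45 DAS it had 746, 588, 568, 701 and 360.2 CPM and 1058, 1041, 993, 957 and 990.0 CPM. The genotypes overlapped at 25 DAS and were apart at 45 DAS. The median interaction was 0.51 over the Calvin cycle genes and 0.62 over the photorespiratory genes, against 0.02 over all genes. Each of the 4 calls was lost when at least 1 of the 20 libraries was left out. CP12-2 lost its call without wild-type replicate 2 at 45 DAS, mutant replicate 3 or 4 at 25 DAS, or mutant replicate 4 at 45 DAS. In photorespiration 0 calls were left without wild-type replicate 2, 3 or 4 at 25 DAS, wild-type replicate 2 or 3 at 45 DAS, mutant replicate 3 or 4 at 25 DAS, or mutant replicate 2 at 45 DAS. There 1 call was left without wild-type replicate 1 at 25 DAS, mutant replicate 1 or 2 at 25 DAS, or mutant replicate 1, 3, 4 or 5 at 45 DAS. Without wild-type replicate 1 at 45 DAS the interaction was called for 16 Calvin cycle and 11 photorespiratory genes. Without wild-type replicates 1 and 5 together it was called for 14 and 11, and the counts ran from 0 to 16 and from 0 to 11 over all libraries left out singly.

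Beyond these 39 genes, a list of 33 others of the pathways was counted, 17 around Rubisco and the Calvin cycle and 16 around photorespiration, of which 17 and 15 were tested. With age 16 of the 17 fell and 1 rose in wild type (34.5% and 36.1% of all genes), and 13 fell and 1 rose in the mutant (34.6% and 35.4%). CA1 and CA2, carbonic anhydrases, changed most in wild type, by -5.99 ± 0.85 and -5.92 ± 0.65 (edgeR adjusted p = 6.57e-06 and 2.20e-07). RBCL, the plastid gene of the Rubisco large subunit, changed by -2.79 ± 0.69 in wild type, but its mutant libraries at 45 DAS spanned 28.2 to 493 CPM, and plastid transcripts are poorly sampled by oligo(dT) priming. Of the 15, 9 fell in each genotype, 4 rose in wild type and 2 in the mutant, against the same shares of all genes. GLN2, the plastid glutamine synthetase, and PLGG1, the glycolate and glycerate transporter, changed by -3.40 ± 0.21 and -3.25 ± 0.21 in wild type, whereas GLU2, the second ferredoxin-dependent glutamate synthase gene, rose by 2.62 ± 0.25 and BASS6, a glycolate transporter gene, by 2.03 ± 0.25. At 45 DAS 4 of 17 and 6 of 15 were higher in the mutant, against 5.05% of all genes, and 0 were lower. TPT, the triose phosphate translocator, and TRXF2, a thioredoxin that activates Calvin cycle enzymes, were higher by 1.06 ± 0.19 and 0.96 ± 0.17 (adjusted p = 0.000853 and 0.000738), and PLGG1 and PMDH2, a peroxisomal malate dehydrogenase, by 0.91 ± 0.21 and 0.80 ± 0.18. At 25 DAS 0 of 32 passed in edgeR, against 3.16% of all genes, with 1 at an unadjusted p under 0.05. The interaction was called for 2 and 2, all positive, against 1.83% of all genes: TPT, TRXF2, BOU and PMDH2.

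The sequence before the gene starts was compared for 2 motifs, which the choice of genes had not used. The G-box (CACGTG, which reads the same on both strands), bound by bZIP and bHLH factors, and the I-box (GATAAG, searched on both strands), known from RBCS promoters, were looked for in the 250 bases before each annotated gene start in RefSeq TAIR10.1. The motifs share no bases where both occur in the windows shown. A G-box lay in 7 of 39 windows (17.9%), 4 of the Calvin cycle and 3 of photorespiration, and in 6.49% of the windows of 27443 protein-coding genes. An I-box lay in 6 of 39 (15.4%) and in 12.3% of all. The 7 genes with a G-box were RBCS2B, FBP, TKL2, PRK, GGT1, GGT2 and GLDP1, of which TKL2 rose with age, GGT2 did not pass the test and the other 5 fell. A match is a string of letters, and no binding was measured here.

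The windows of those 5 genes are shown because none of them contains part of another annotated gene. Each runs 5′ to 3′ on the strand of the gene and ends at the base before its start, and capitals mark the G-box and any I-box. They lie at chr5:15382072-15382321, minus strand, for RBCS2B, chr3:20016587-20016836, plus strand, for FBP, chr1:11531949-11532198, plus strand, for PRK, chr1:8272022-8272271, minus strand, for GGT1, and chr4:15931423-15931672, minus strand, for GLDP1. The submitters' processing notes name TAIR10 and the count files carry locus identifiers only, so these positions are those of RefSeq TAIR10.1.
RBCS2B: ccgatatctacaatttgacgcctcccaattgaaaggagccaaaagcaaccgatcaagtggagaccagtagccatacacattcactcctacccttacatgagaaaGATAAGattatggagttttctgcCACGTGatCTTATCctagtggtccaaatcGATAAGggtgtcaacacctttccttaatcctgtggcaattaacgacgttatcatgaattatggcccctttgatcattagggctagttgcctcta
FBP: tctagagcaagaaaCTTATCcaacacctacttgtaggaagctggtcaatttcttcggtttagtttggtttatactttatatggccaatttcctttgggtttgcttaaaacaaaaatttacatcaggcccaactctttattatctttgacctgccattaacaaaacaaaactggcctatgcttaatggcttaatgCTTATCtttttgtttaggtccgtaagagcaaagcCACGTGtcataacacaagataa
PRK: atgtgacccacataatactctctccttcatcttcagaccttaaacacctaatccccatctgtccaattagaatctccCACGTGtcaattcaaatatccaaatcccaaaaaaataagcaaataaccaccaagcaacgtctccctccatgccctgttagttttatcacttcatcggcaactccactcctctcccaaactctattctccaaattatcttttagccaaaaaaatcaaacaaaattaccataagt
GGT1: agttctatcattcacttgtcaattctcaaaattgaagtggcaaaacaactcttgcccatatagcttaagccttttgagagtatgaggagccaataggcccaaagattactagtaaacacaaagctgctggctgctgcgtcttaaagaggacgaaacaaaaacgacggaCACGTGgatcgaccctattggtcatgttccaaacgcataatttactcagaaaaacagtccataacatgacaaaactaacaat
GLDP1: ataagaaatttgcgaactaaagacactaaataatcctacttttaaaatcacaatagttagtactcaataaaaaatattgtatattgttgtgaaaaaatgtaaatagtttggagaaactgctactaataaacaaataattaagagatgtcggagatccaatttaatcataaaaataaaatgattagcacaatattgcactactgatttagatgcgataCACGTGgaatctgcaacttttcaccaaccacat
The first base of the G-box lay 123 bases before the start in RBCS2B, 22 in FBP, 173 in PRK, 82 in GGT1 and 33 in GLDP1. RBCS2B also held 3 I-boxes and FBP 2, and the other 3 windows held 0. With age RBCS2B had a log2 change of -5.99 and GLDP1 of -1.01 in wild type, so genes with the motif were found at both ends of the range of falls.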

How the data were processed

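Per the labels' protocols, RNA was reverse transcribed with barcoded oligo(dT) primers, pooled, fragmented with Tn5 and sequenced as 3' ends. Each deposited file gives, for 1 library, the raw count of every locus. The submitters' processing notes name STAR 2.7.8a and TAIR10. The annotation, the counting tool, the use of strand, multi-mapping reads and molecular identifiers are not given in the sources used here. Groups and replicate numbers came from the labels.

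In R 4.3.3, edgeR 4.0.16 and limma 3.58.1 were used. The counts entered 1 model over 20 libraries with a mean per group and 1 spread per gene. Scaling was by the trimmed mean of M values, with filterByExpr by group and the robust quasi-likelihood F-test. P-values were adjusted by the Benjamini-Hochberg method over 14503 genes in each comparison, at a threshold of 0.05. SEs are the log2 fold change over the root of F. Folds such as 1.97-fold are 2 to the log2 fold change. CPM are given as mean ± SD or per library. The fit was tested on simulated data for age in wild type, with 1 spread per gene shared by all groups, unlike these data. It recovered 62.1% of changes of 1 and 91.7% of changes of 2 on the log2 scale, and 4.55% of its calls were false. Floors cover counting error only.

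The members and lists were chosen with earlier results of these data known. Full values go, per comparison and pathway, to up to 3 called members with the largest rise and 3 with the largest fall, or to the 2 with the smallest p where none was called. Other members singled out for their libraries were chosen after their values were seen. DESeq2 1.42.0, other scalings and filters, thinning to 615317 counts and leaving out each library were tried as alternatives. No 2 libraries of a group agreed within sampling noise.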

Additional observations from a re-analysis of the deposited data

Results flagged for a closer look

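Within each group of 5 libraries, the highest and lowest library of every tested gene was checked for a gap from its neighbour that is large against the range of the group. Of 152 groups, 8 (5.26%) had such a library, where chance gives about 1 in 20. In 6 of the 8 it was replicate 1 of wild type at 45 DAS, as the highest: RBCS1A had 2340.0 CPM there, against 934 CPM in the next library. RBCS2B had 397.7 CPM against 68.6, and RBCS3B 861.5 against 221.5. GAPA2 had 324.4 CPM against 97.1, GLDT 86.39 against 39.7 and GLDH3 69.28 against 28.4.

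The other 2 were single genes. FBP had 877.7 CPM in replicate 5 of wild type at 25 DAS, the lowest of its group, against 998 CPM in the next. CP12-2 had 176.9 CPM in replicate 4 of the mutant at 45 DAS, the highest, against 147 CPM in the next.

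For 4 genes the test of the interaction itself passed the threshold. The log2 interaction was 0.9315 for CP12-2, 0.8114 for GGT1, 0.9504 for GLDH1 and 0.9595 for SHM1, each meaning a smaller fall in the mutant. All 4 calls depended on single libraries, each being lost when at least 1 of the 20 was left out, and 3 were lost in thinned counts.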

How the results depend on the processing

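With age, the counts of members called ran over all alternatives from 22 to 23 Calvin cycle and 13 to 14 photorespiratory genes in wild type, and from 21 to 22 and 9 to 13 in the mutant. The 9 came from keeping only those calls whose estimated change was at least 2-fold. At 25 DAS 0 were called under any alternative. For the genotype at 45 DAS, 9 Calvin cycle and 11 photorespiratory calls became 1 and 4 when the groups compared were fitted alone, 14 and 12 with limma voom and a variance per group, 0 and 1 with only calls of at least 2-fold kept, and 18 and 13 without wild-type replicates 1 and 5, an alternative chosen after seeing the data. Leaving out each library gave 3 to 19 and 6 to 13. The interaction, called for 1 and 3, was called for 5 and 8 with voom, for 5 photorespiratory genes with DESeq2, for 0 photorespiratory genes in thinned counts, for 0 and 0 with only calls of at least 2-fold kept, for 14 and 11 without wild-type replicates 1 and 5, and for 0 to 16 and 0 to 11 with each library left out. The cause was not tested.

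Of the log2 differences that turned sign, none had been called. At 45 DAS PGK2 had -0.043 and RPI 0.071 without wild-type replicates 1 and 5, and CP12-3 had -0.015 with voom; with age in the mutant FBA3 had -0.045 in thinned counts. With each library left out the ranges at 45 DAS were -0.022 to 1.85 (RBCS2B), -0.0012 to 0.209 (PGK2), -0.159 to 0.154 (RPI) and -0.103 to 0.303 (CP12-3), and for FBA3 with age in the mutant -0.047 to 0.103.

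With a replicate block 11 and 11 members were called at 45 DAS, and 1 and 3 for the interaction. Deviations of same-numbered libraries correlated at a median r of 0.02 over 30 pairs (-0.23 to 0.36) and those of different numbers at -0.008 over 120 (-0.30 to 0.34). An r above 0.1 was found in 6 of the 30 and 16 of the 120. The medians showed no common pairing by number, and a pairing of single libraries was not tested. Depth limits PGLP1, TKL2 and CP12-3, with 0 to 25 counts per library.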
